A study of Arabidopsis thaliana with 6 samples.

Results

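GH3 enzymes are acyl acid amido synthetases: they activate the carboxyl group of a plant hormone with ATP and join it to an amino acid. Members that use indole-3-acetic acid (IAA), the main natural auxin, remove free auxin from the active pool, and many of their genes are themselves induced by auxin, so that the family is known as a feedback on auxin level. Other members act on jasmonate or on benzoates and salicylate. The genes described here are GH3.1, GH3.3, WES1 (also called GH3.5) and GH3.17 of Arabidopsis thaliana, 4 genes read by 4 of the array's 22746 probe sets that are not controls. They were taken by symbol, from probe sets to which the platform annotation gives exactly 1 gene. The set was proposed after an earlier analysis of the same 6 arrays had shown all 4 genes lower with brassinazole, so their difference between the groups is given as a description, with no test.

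The arrays measured RNA of whole Columbia seedlings that had spent 10 d on agar in long days (16 h light, 8 h dark) before 8 h in liquid medium. In 3 samples the medium contained 1e-07 M 2,4-D, a synthetic auxin, and in the other 3 it contained 1e-07 M 2,4-D together with 1e-06 M brassinazole, which blocks brassinosteroid synthesis. All seedlings thus received auxin, and neither untreated seedlings nor seedlings given brassinazole only were analysed here. The titles call the samples biological replicates, but the labels also describe RNA of 3 seedlings that was pooled, so the spread between the arrays of a group may be partly technical. RNA came from whole seedlings, in which fewer cells that express a gene and less RNA per cell cannot be told apart.

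Values are MAS5 signals, linear intensities with 1 value per probe set and array, and the mean of the middle 96% of probe sets was 499.8 on every array. Probe sets bind with different strength, so a signal compares arrays for 1 gene and does not rank the transcripts of different genes. Changes are 2,4-D plus brassinazole minus 2,4-D alone on the log2(signal + 16) scale, which understates the change of a dim probe set. Green tissue and root were both represented, with RCA (Rubisco activase) at 22954 to 29053 and PYK10, a root beta-glucosidase, at 13503 to 17410 over the 6 arrays. Of the 3 root markers tested, PYK10 was at 15032 ± 2088 with 2,4-D and 15908 ± 1430 with brassinazole (SD, n = 3; limma adjusted p = 0.684). Both root hair expansins were dimmer with brassinazole without passing the test. EXPA7 stood at 205 ± 27.2 and 154 ± 7.65 (SD, n = 3; limma adjusted p = 0.0916) and EXPA18 at 264 ± 51.9 and 188 ± 22.2 (limma adjusted p = 0.0806, and 0.0238 without auxin replicate 3). In 1 of the array's 2 sets of integrity controls, the 3' to 5' ratio was 12.3 to 17.3 with 2,4-D and 18.8 to 21.1 with brassinazole for actin, and for ubiquitin 3.14 to 3.54 and 2.59 to 3; in the other set the groups overlapped for both transcripts. Of the 64 control probe sets, 17 read higher on all 3 brassinazole arrays than on any auxin array and 3 read lower, where 12.9% and 14.3% of the probe sets tested did. Among the 17 were 5S rRNA, at 134 to 174 with 2,4-D and 230 to 284 with brassinazole, and spiked controls of both sets. In 1 set, bioC read at its 3' end was at 132 to 161 and 179 to 285, and in the other at 281 to 382 and 386 to 490. For bioB read in its middle, the same sets gave 194 to 236 and 244 to 291, and 267 to 315 and 336 to 383. In the first of these sets, bioB read at its 3' end was also separated, at 146 to 161 and 179 to 238. So was bioD read at its 5' end there, at 1626 to 1718 and 1765 to 2390.5. In the other set, bioB read at its 5' end was at 229 to 245 and 265 to 282. The remaining bioB, bioC and bioD probe sets overlapped between the groups, among them bioC read at its 5' end in both sets. Single arrays also stood apart in controls: 25S rRNA read 981 on auxin replicate 1 and at most 215 elsewhere, and a spiked bioD control read 3800 on brassinazole replicate 3 and at most 2746 elsewhere. The part of these differences in the GH3 values was not tested. Without those 2 arrays the log2 changes of the 4 genes were -1.61 (GH3.1), -2.27 (GH3.3), -1.16 (WES1) and -0.63 (GH3.17), against -1.75, -2.25, -1.21 and -0.70 with all 6.

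GH3.3 (AT2G23170) encodes an enzyme that conjugates IAA to several amino acids, and acts with WES1 and GH3.6 in adventitious rooting. Its signal was 7707, 7248 and 7645 on the auxin arrays 1 to 3 and 1441, 1638 and 1635 on the brassinazole arrays 1 to 3. The groups were far apart: the lowest auxin array exceeded the highest brassinazole array by 5610 signal units, against a range of 460 within the auxin group and 197 within the brassinazole group. On the linear scale 20.9% of the mean signal was left with brassinazole, a 4.79-fold difference, and any auxin array set against any brassinazole array gave between 4.42-fold and 5.35-fold. The log2 change was -2.25 ± 0.0791 (SE), the deepest of the 17059 probe sets that were left after a filter on low signals. Places depend on the added 16: by the ratio of mean signals, GH3.3 came 2nd, GH3.1 7th, WES1 54th and GH3.17 257th from the deepest.

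WES1 (AT4G27260) encodes GH3.5, an enzyme of broad acyl acid use that accepts both IAA and salicylate. Its auxin arrays read 5806, 5383 and 5354 and its brassinazole arrays 2306, 2474 and 2361. Replicates were close in both groups, with a coefficient of variation (CV, the SD as a percentage of the mean) of 4.58% and 3.61%. Over all probe sets tested, dim ones included, the median CV was 8.78% and 9.12%, and bright probe sets alone were not compared. Brassinazole arrays kept 43.2% of the auxin mean, and the array pairs gave 2.16-fold to 2.52-fold lower signals. The log2 change of WES1 was -1.21 ± 0.075 (SE), place 37 from the deepest.

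GH3.1 (AT2G14960) belongs by sequence to the same auxin-conjugating branch. It was a dim probe set, at 188, 185 and 185 on the auxin arrays and 53.1, 46.3 and 34.0 on the brassinazole arrays. The auxin arrays lay within 2.92 signal units of each other (CV 0.853%), whereas the brassinazole arrays spread over 19.1 units (CV 21.8%), with brassinazole replicate 3 lowest. A share of 23.9% of the auxin mean was left, a 4.18-fold difference in mean signal, with array pairs from 3.48-fold to 5.52-fold. On the log2(signal + 16) scale the change of GH3.1 was -1.75 ± 0.158 (SE), place 6 from the deepest, and -1.62 without brassinazole replicate 3. Its value on that array, 34.0, lay just under the signal of 34.2 that marks the dimmest probe set kept by the filter, while its mean in each group lay above that line.

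GH3.17 (AT1G28130) encodes an enzyme that favours IAA as acyl acid and glutamate as amino acid. Its signals were 1259, 1541 and 1351 with 2,4-D alone and 951, 903 and 699 with brassinazole. The groups did not overlap, but the gap of 308 units between them was close to the range of 282 within the auxin group and 253 within the brassinazole group. The brassinazole mean was 61.5% of the auxin mean, and array pairs gave 1.32-fold to 2.21-fold lower signals. The log2 change of GH3.17 was -0.70 ± 0.115 (SE), place 181 from the deepest, and it was -0.57 without brassinazole replicate 3, the array on which it was lowest.

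**Figure D1:**
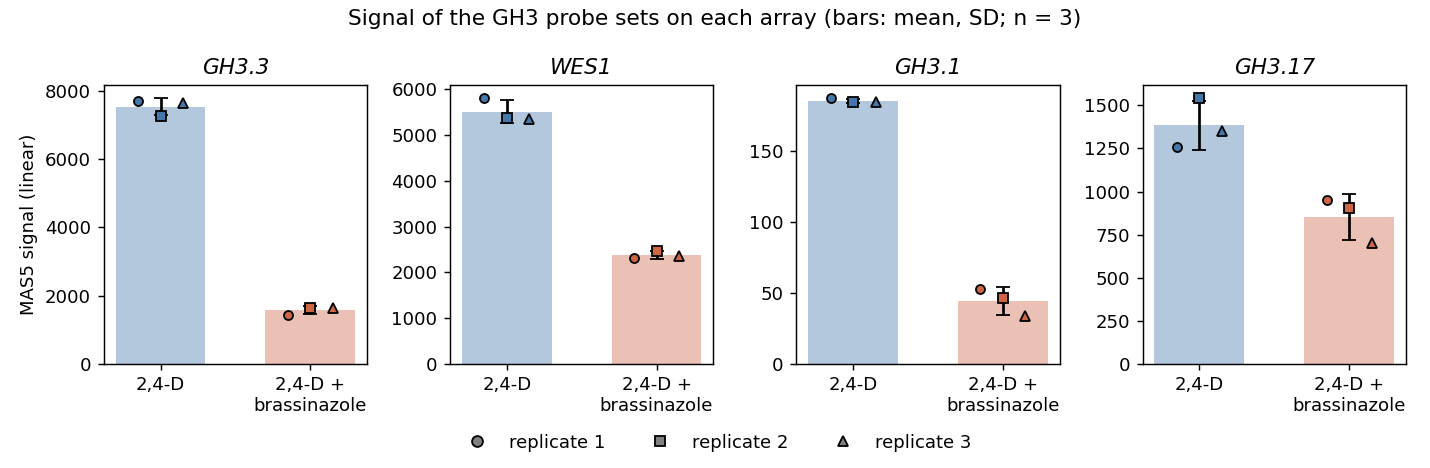
MAS5 signal (linear, each axis from 0) of the 4 GH3 probe sets on each array; bars give the mean and error bars the SD of 3 arrays, and marker shapes the replicate number. No brassinazole array reaches the lowest auxin array for any of the 4 genes, and GH3.17 shows the narrowest gap relative to the spread of its arrays.

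With each gene's 3 brassinazole arrays below its 3 auxin arrays, 4 of 4 members were separated in this direction; so were 14.3% of all probe sets tested. All 4 lie among the probe sets that limma called lower at an adjusted p under 0.05, and 4.08% of all probe sets tested do. Since this contrast chose the genes, nothing is read from either count.

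The size of the difference was not equal among the 4 genes. Taken array by array against the auxin mean, GH3.3 stood at -2.37, -2.19 and -2.19 on the brassinazole arrays 1 to 3, GH3.1 at -1.55, -1.70 and -2.01, WES1 at -1.25, -1.15 and -1.22, and GH3.17 at -0.53, -0.60 and -0.97. On this scale no gene's brassinazole arrays overlapped those of another. The place of GH3.1 in that order changed with the pseudocount. At 1 its arrays ran from -1.79 to -2.42 and enclosed those of GH3.3 (-2.20 to -2.39), and at 64 they ran from -1.09 to -1.35 and enclosed those of WES1 (-1.14 to -1.23). GH3.3, WES1 and GH3.17 kept their order and did not overlap with each other at pseudocounts of 1, 16 and 64.

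**Figure D2:**
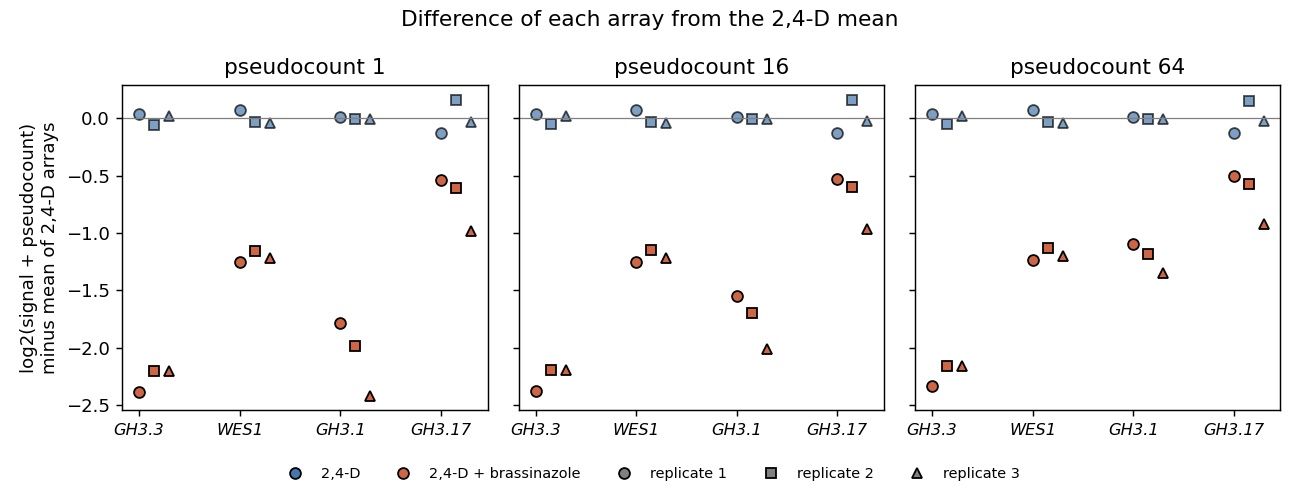
Difference of each array from the mean of the 2,4-D arrays in log2(signal + pseudocount), for pseudocounts of 1, 16 and 64; blue markers are 2,4-D arrays, orange markers 2,4-D plus brassinazole, and shapes the replicate. GH3.3, WES1 and GH3.17 stay in place between panels, while GH3.1 moves from the level of GH3.3 (-2.06 on average at pseudocount 1) to that of WES1 (-1.21 at pseudocount 64).

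The ratio of 2 probe sets on the same array does not depend on how that array was scaled, and a shift of this ratio between groups shows unequal change. The 6 ratios among the 4 genes repeat the same 4 values per array, so they are not independent of each other; 5 of them did not overlap between the groups, and the share among other pairs of probe sets was not computed. Relative to its mean on the auxin arrays, the log2 ratio of GH3.3 over WES1 was -1.13, -1.05 and -0.98 on the brassinazole arrays 1 to 3, with the auxin arrays between -0.04 and 0.06. GH3.3 was thus further below its auxin level than WES1 on each of these 3 arrays. WES1 over GH3.17 shifted less, to -0.72, -0.55 and -0.24 against -0.20 to 0.21 on the auxin arrays, and brassinazole replicate 3 came close to the auxin arrays. The ratio of GH3.1 over GH3.3 was the one that overlapped, at 0.58, 0.20 and -0.25 against -0.03 to 0.05, so the arrays do not order the changes of these 2 genes. These ratios come from the contrast that chose the genes and were not tested.

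**Figure D3:**
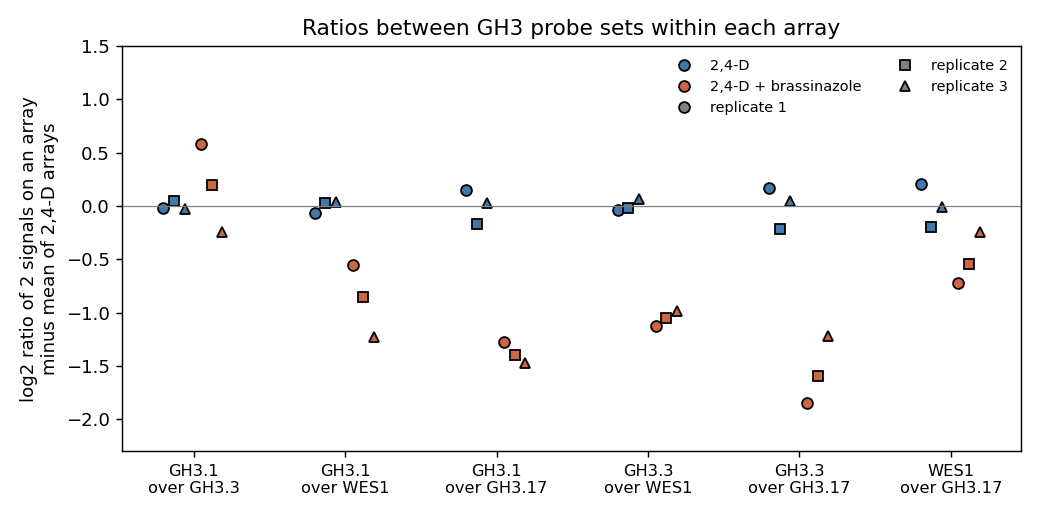
Log2 ratio of the signals of 2 GH3 probe sets on the same array, minus its mean over the 2,4-D arrays, for the 6 pairs; colours give the treatment and shapes the replicate. The brassinazole arrays lie apart from the 2,4-D arrays in 5 pairs, and lie on both sides of them for GH3.1 over GH3.3.

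The differences can be set against what the enzymes are known to use. With the pseudocount of 16, GH3.3, which joins IAA to several amino acids, had the deepest difference. GH3.1, known here by its sequence branch only, came next, and then WES1, which accepts salicylate besides IAA. GH3.17, the IAA and glutamate enzyme, had the smallest. At 64, GH3.1 and WES1 were not separated, and at 1, GH3.1 and GH3.3 were not. GH3.3, WES1 and GH3.17 are all known to use IAA. With so few genes, a preference for GH3.1 known here only by sequence branch, and signals that do not rank transcripts, no relation between preference and size, or between abundance and size, could be tested. On the plot of change against mean signal, GH3.3 and WES1 lie among bright probe sets and GH3.1 among dim ones.

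**Figure D4:**
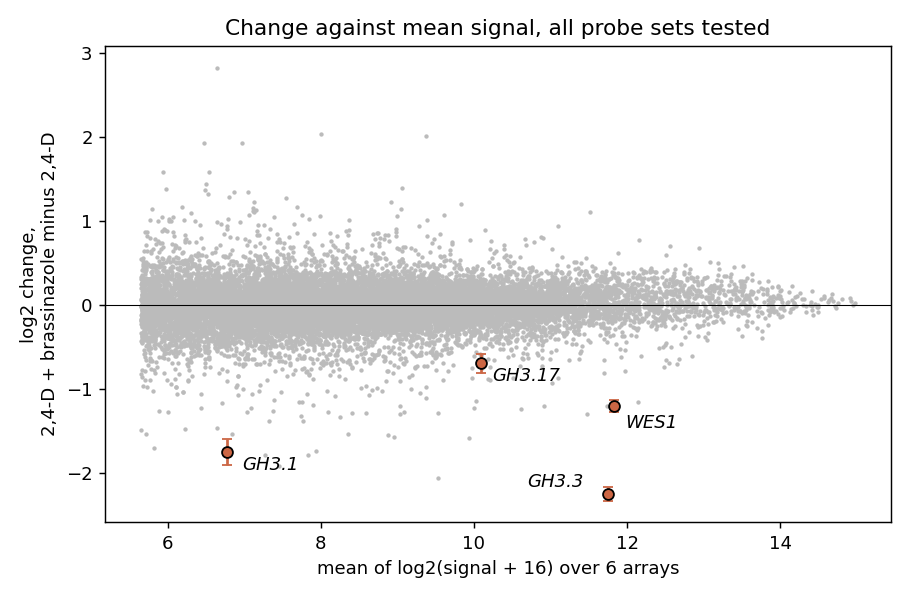
Log2 change (2,4-D plus brassinazole minus 2,4-D) against the mean of log2(signal + 16) over 6 arrays for the 17059 probe sets tested (grey) and the 4 GH3 genes (orange, bars SE). GH3.3 is the lowest point of the plot at -2.25, and GH3.17 lies at -0.70, near the edge of the grey cloud.

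Other GH3 loci gave no call among those tested. The family list held 19 loci, of which 11 had a probe set with 1 gene and 6 passed the filter, the 4 members included. The next gene after GH3.17 in size was GH3.9, which affects primary root growth. Its signals were 79.5, 68.9 and 52.3 with 2,4-D and 54.7, 38.9 and 46.0 with brassinazole, so the groups overlapped, and the log2 change was -0.40 ± 0.197 (SE; limma adjusted p = 0.255). AT5G13350, counted in the family list, was at 52.5 ± 14.6 and 39.6 ± 8.10 (SD, n = 3; limma adjusted p = 0.497). GH3.2, GH3.4, GH3.6 and JAR1, the enzyme that joins jasmonate to isoleucine, had no probe set assigned to them alone in the annotation used and were not analysed here.

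Of the 5 GH3 loci under the filter, AT5G51470 had the largest change, upward with brassinazole, and it is named after its values were seen. Its signals were 2.46, 12.6 and 12.6 with 2,4-D and 38.7, 41.0 and 37.8 with brassinazole. In a limma fit without the filter its log2 change was 1.16 ± 0.217 (SE) with an adjusted p of 0.0221, which went to between 0.0499 and 0.0855 with any 1 array left out, so that the call was kept without auxin replicate 3 and lost without each of the others. These are very dim signals, for which no detection calls were used here. The other 4 loci had no signal above 49.5 on any array, and their adjusted p in that fit was 0.422 to 0.982. They went both ways, with log2 changes of 0.38 (AT1G23160), 0.015 (AT1G48670), -0.28 (AT1G48660) and -0.36 (AT5G13380).

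Genes of the wider auxin pathway that could be named were few, and 1 passed the test. Outside the 4 members, the lists of auxin conjugation, other inactivation, synthesis, receptors, response factors, Aux/IAA repressors and transport held 120 loci, of which 11 were tested. With limma 1 of these 11 fell and 0 rose (background 4.08% lower and 3.44% higher), 5 had an unadjusted p under 0.05 (background 21.9%, either direction), and the median log2 change was -0.29, against -0.01 over all probe sets tested. For the hydrolases that release IAA from conjugates, the TIR1/AFB receptors, the response factors and the carriers, no locus was named.

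The gene that fell was AT1G14120 (DAO2), on the list of other auxin inactivation. Its signals were 261, 298 and 220 with 2,4-D and 177, 202 and 171 with brassinazole, a log2 change of -0.46 ± 0.127 (SE; limma adjusted p = 0.0401). The groups did not overlap, but the gap was small, and the call was lost without auxin replicate 1 or 2 (0.117 and 0.166) and without brassinazole replicate 1, 2 or 3 (0.102, 0.0516 and 0.0968). Over all 15 alternatives tried, the adjusted p of AT1G14120 ran from 0.0265 to 0.185. On the same list, AT1G14130 (DAO1) was at 245 ± 44.1 and 237 ± 8.09 (SD, n = 3; limma adjusted p = 0.921), a log2 change of -0.03. UGT74D1, a glucosyltransferase that acts on auxins, was at 1302 ± 136 and 1293 ± 57.9, a log2 change of -0.01.

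Synthesis and response genes gave values without a call. YUC2 and YUC6, flavin monooxygenases of IAA synthesis, had log2 changes of -0.19 and -0.12 (limma adjusted p = 0.485 and 0.852), and that of YUC6 turned to 0.01 without auxin replicate 2 and 0.12 without brassinazole replicate 3. Of the Aux/IAA repressors, 0 of 4 tested passed with limma and 4 had an unadjusted p under 0.05, as did 21.9% of all probe sets tested. IAA30 and IAA29 were at -0.58 ± 0.201 and -0.35 ± 0.135 (SE; limma adjusted p = 0.0989 and 0.142), with IAA30 passing at 0.0282 without brassinazole replicate 1. The largest change of the 4 was that of IAA20, a dim probe set, at -0.79 ± 0.329 (SE; limma adjusted p = 0.172), and its groups overlapped. From the salicylate list, which bears on the second substrate of WES1, WRKY53 alone was tested, at 36.6 ± 16.5 and 58.2 ± 9.81 (limma adjusted p = 0.221).

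**Figure D5:**
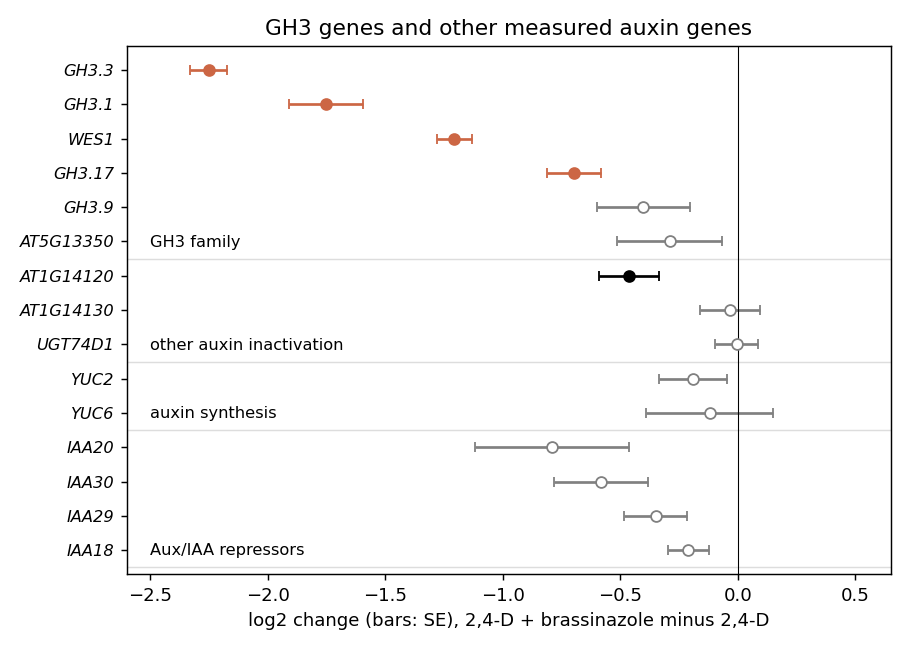
Log2 change with its SE for the tested genes of the GH3, other inactivation, synthesis and Aux/IAA lists; orange points are the 4 GH3 genes (chosen on this contrast), the black point passed an adjusted p of 0.05, and open points did not. The 4 GH3 genes run from -2.25 to -0.70, and the 11 others from -0.79 to -0.01.

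The genes most like each member over the 6 arrays were sought among 9411 tested probe sets with 1 gene, by the Euclidean distance between log2 values centred on their mean. GH3.1 lay nearest to AT4G38410 (distance 0.299) and AT1G34510 (0.443), and GH3.3 to AT2G23060 (0.674) and AT4G38410 (0.820). AT2G23060 stood at -1.79, short of the -2.25 of GH3.3. WES1 was closest to AT1G67750 (0.149), at 2393 ± 53.0 and 1006 ± 35.0 (SD, n = 3), and then to LBD16 (0.250), a transcription factor of lateral root initiation, at 300 ± 20.3 and 126 ± 17.1. GH3.17 was closest to XTH33 (0.145), a xyloglucan-modifying enzyme, at 84.2 ± 7.29 and 50.5 ± 11.7, and to AT1G66760 (0.166), at 503 ± 46.1 and 331 ± 58.0. XTH33 itself did not pass the test (limma adjusted p = 0.0622, and 0.0484 without the variance trend). These distances take in both the group difference and the deviations of single arrays, and the 2 parts were not separated. They describe likeness on 6 arrays.

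The genes next to the 4 loci in the annotation were also looked at. Of the 16 protein-coding genes that lie within 2 places on either side, 11 had a probe set with 1 gene and 8 were tested. With limma 0 of these fell and 1 rose, beside 4.08% and 3.44% of all probe sets tested, shares at which 8 genes would hold few calls. Their log2 changes ran from -0.35 to 0.36. The one that rose was AT4G27270, beside WES1, from 281 to 366 (limma adjusted p = 0.039), and it was not called with any 1 array left out (0.0667 to 0.141). The nearest tested neighbours of GH3.17 and GH3.1 were AT1G28120, at 965 and 955, and AT2G15000, at 549 and 622, while none of the 4 genes considered around GH3.3 was tested.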

How the data were processed

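The authors deposited 1 linear intensity per probe set and array for 6 arrays; MAS5 is the tool named, per the submitters' processing notes, and its version is not stated in the labels. The sample titles gave each group and replicate number. Of 22810 probe sets, 64 controls were left out of the test. The pseudocount before log2 was 16. Probe sets with a mean under the 25th percentile of mean log2 values were removed, leaving 17059. The test was limma 3.58.1, run in R 4.3.3 (eBayes with trend, two-sided, Benjamini-Hochberg over all probe sets tested, threshold 0.05); the steps were tested on simulated data. Symbols came from the platform annotation (1 gene for 13513 probe sets) and, through gene identifiers, for 13436 of these from a RefSeq table of TAIR10.1, used for names and neighbours only. The 3 arrays in each group limit the precision.

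The members and gene lists were chosen with earlier results of these data known. The rule for named genes took the 4 members; from each list up to 4 genes past the threshold or, where none passed, the 2 with the smallest p; and for each member the 2 nearest genes by distance. The neighbouring genes, the fit of AT5G51470 without a filter, and the values of AT1G14130 and IAA20 were added after the data were seen. Replicate numbers were not taken as pairs. No sequences were used.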

Additional observations from a re-analysis of the deposited data

How the results depend on the processing

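GH3.3, WES1 and GH3.17 moved by less than 1 SD between replicates under each of 15 alternatives, with log2 changes of -2.28 to -2.19, -1.23 to -1.16 and -0.78 to -0.57. GH3.1 moved to -2.06 with a pseudocount of 1 and -1.21 with a pseudocount of 64, ran from -1.85 to -1.62 with 1 array left out, and was removed by a filter at the 50th percentile. The counts of probe sets called lower and higher, 696 and 586, were 439 and 316 without the variance trend. They were 460 and 355 without auxin replicate 1 and brassinazole replicate 3 together. With 1 array left out they ran from 452 to 630 and from 338 to 527. Fewer arrays can lower a count, and the part of this in these drops was not tested. Centring arrays on their median gave 609 lower and 676 higher, which turns the balance. The single call among other auxin genes, AT1G14120, left 0 calls with quantile normalization (limma adjusted p = 0.0519), with no trend in the variance (0.079) and without the same 2 arrays (0.185). With 1 array left out the count was 0 to 1. The call was AT1G14120 without auxin replicate 3 (0.0265), but IAA30 without brassinazole replicate 1 (0.0282). Without a filter the adjusted p of AT1G14120 was 0.104, and another gene, AT5G51470, made the count 1. Changes near 0 turned sign. YUC6 went from -0.12 to 0.00929 without auxin replicate 2 and 0.1238 without brassinazole replicate 3 (-0.3688 to 0.1238 over the 6 fits with 1 array left out), PRK (phosphoribulokinase, a green tissue marker) from -0.08 to 0.006769 without brassinazole replicate 3 and 0.04202 without the 2 arrays (-0.1491 to 0.006769 over the 6 fits), and RCA from 0.05 to -0.02637 and -0.004568 in the same fits (-0.02637 to 0.1435 over the 6). The cause was not tested. Same-numbered arrays deviated together with correlations of 0.0372, 0.0625 and 0.0491, too low to pair them, although every array correlated best with its own number. With the replicate block, 676 and 604 were called and the 4 GH3 changes were the same by construction, with an SE of 0.158, 0.0799, 0.0769 and 0.102 for GH3.1, GH3.3, WES1 and GH3.17.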
